A study of Mus musculus with 10 samples.

Results

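The genes of platelet-derived growth factor (PDGF) signaling described here are the ligands Pdgfa, Pdgfb, Pdgfc and Pdgfd, the receptors Pdgfra and Pdgfrb, and Plcg1, which encodes phospholipase C gamma, an enzyme that binds the activated receptors. They were chosen by gene symbol, and all 7 were found among the 29564 genes listed and among the 13291 genes tested. RNA was sequenced from the left ventricle of 5 control mice and 5 HFD+mTAC mice, with 1 library per mouse. All 10 mice were wild type, of a strain that the labels give as C57BL6 and the study's methods as C57BL/6J. All are taken to have received vehicle, which the sample titles name only for HFD+mTAC mice. The methods give it as DMSO, polyethylene glycol and water at 10 mL/kg daily over 6 to 9 weeks. That time is a range over the study's efficacy tests, and the time that applies to these mice is not stated. According to the study's methods the mice were male. HFD+mTAC mice underwent moderate transverse aortic constriction (mTAC), which narrows the aorta and loads the ventricle with pressure, at 11 weeks of age, and were then fed a high-fat diet (HFD) with 60% of kilocalories from fat. In the study's treatment of HFD+mTAC mice, vehicle followed an induction period of 16 weeks. The methods describe unoperated mice on chow with 10% of kilocalories from fat as controls, so that the parts of diet and operation cannot be told apart in this comparison. The combination models heart failure in which the ejection fraction is preserved (HFpEF). By gene set enrichment with fewer control mice than here, the study reported PDGF receptor signaling among the gene groups enriched in HFpEF hearts. That set analysis was not repeated here.

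PDGF ligands are secreted as dimers. PDGF-A and PDGF-B are cut by proprotein convertases inside the cell, whereas PDGF-C and PDGF-D leave the cell in a latent form and are activated by proteases such as the plasminogen activators. Ligand binding brings receptor chains together, the chains phosphorylate each other, and adaptors, phosphatidylinositol 3-kinase and phospholipase C gamma dock on them. In the heart, the alpha receptor is known as a marker of fibroblasts and the beta receptor as a marker of pericytes and smooth muscle cells, while endothelial cells are a known source of PDGF-B and platelets store PDGF. In whole ventricle, a change in the share of a cell type and a change in RNA per cell cannot be told apart.

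Total estimated counts ranged from 34.2 M to 53.7 M per mouse, of which 43.8 to 52.7% fell on mitochondrial genes and 12.6 M to 21.1 M on the genes tested. Cardiomyocyte transcripts prevailed, with Myl2 at 45800 to 64000 and Tnnt2 at 28800 to 42700 TPM over the tested genes, a level corrected for transcript length and scaled to the same total in each mouse. Of the 9 ventricular markers listed, Myh6 (146 to 256 TPM) and Ryr2 (31.9 to 58.7 TPM) were far lower, below the fibroblast marker Dcn. Every other marker of that list had at least 2400 TPM. The cause of the low Myh6 values was not tested. Among atrial markers, Sln was listed at 0 in 8 mice and Myl7 did not exceed 5.93 TPM, whereas Nppa (358 to 1040 TPM) and Myl4 (5.87 to 17.7 TPM) were present in every mouse. The fibroblast marker Dcn (547 to 843 TPM), the pericyte marker Rgs5 (275 to 449 TPM) and the endothelial marker Pecam1 (37.3 to 119 TPM) were present in every mouse, so that the cell types known to carry these receptors and ligands were represented. Of the 9 markers listed for pericytes and smooth muscle cells, 2 were listed at 0 in some mice, Cspg4 in 2 and Kcnj8 in 5. The other 7, Rgs5 included, were present in every mouse. No 2 libraries of a group agreed within counting noise (chi-square per degree of freedom of at least 13.3).

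None of the 7 genes differed between control and HFD+mTAC hearts after adjustment for all genes tested. By edgeR's quasi-likelihood test with Benjamini-Hochberg adjustment, 0 of 7 had an adjusted p under 0.05, in a comparison in which 8 of the 13291 genes (0.0602%) were called. DESeq2 called 0 of the 7 and 118 genes in all (0.888% of those it tested), and limma on log2(TPM + 1) called 0 of the 7 and 1 gene in all (0.00752%). The unadjusted p was under 0.05 for 1 of the 7 genes, Plcg1, which was higher in HFD+mTAC hearts, where 4.54% of all tested genes were higher and 3.72% were lower at that threshold. CPM are counts scaled between mice by library total and TMM (trimmed mean of M-values), and are not corrected for length. The CPM of the groups overlapped for all 7 genes, whereas they did not overlap for 1.96% of all tested genes. The log2 fold changes ran from -0.15 for Pdgfa to 0.23 for Plcg1, and their median over all tested genes was 0.002.

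**Figure D1:**
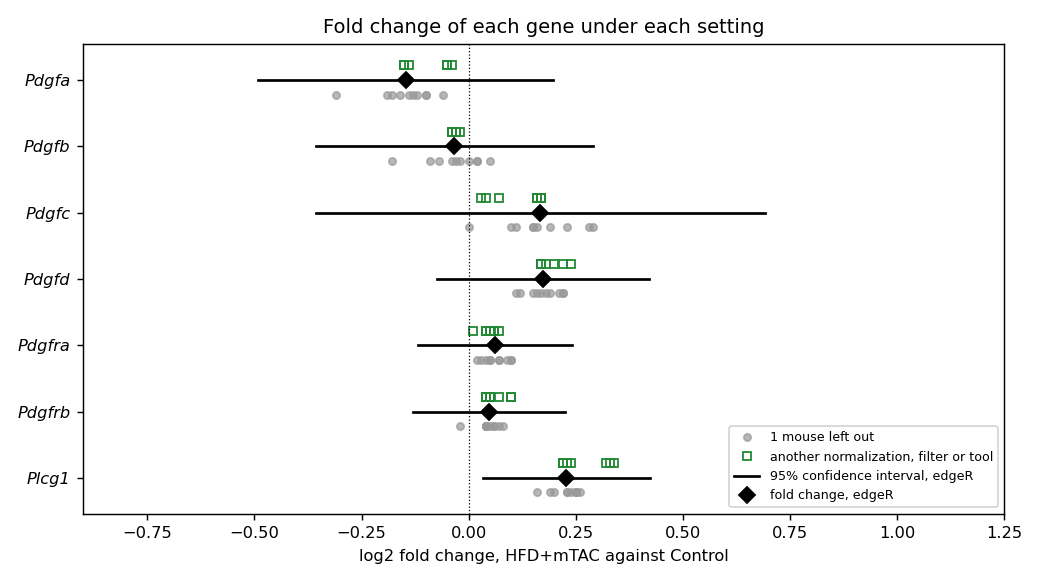
Log2 fold change of each gene (HFD+mTAC against control mice, horizontal axis). Diamonds and lines give edgeR's estimate and its 95% confidence interval, squares other normalizations, filters or tools, and grey points the fit with 1 mouse left out. The interval lies above 0 for Plcg1 (0.03 to 0.42) and includes 0 for the other 6 genes.

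Per transcript length, the 7 genes covered a wide range of levels. Plcg1, Pdgfb, Pdgfa and Pdgfrb were the most abundant, with group means from 23.4 to 37.5 TPM over the tested genes, and lay between the percentiles of 74.7 and 79.6 of all tested genes. Pdgfd (8.80 TPM over all 10 mice) and Pdgfra (6.96 TPM) lay near the median tested gene, at 6.70 TPM, and Pdgfc was far lower at 0.686 TPM, at the percentile of 14.4. In both groups the values of Pdgfrb lay apart from those of Pdgfd and the values of Pdgfra apart from those of Pdgfc. Neighbours in the order of the 4 most abundant genes overlapped in both groups. All control values of Pdgfb (28.3 to 35.0 TPM) nevertheless lay above those of Pdgfrb (22.3 to 24.7 TPM), and all HFD+mTAC values of Plcg1 (30.3 to 47.7 TPM) lay above those of Pdgfrb (20.8 to 29.3 TPM). Pdgfd and Pdgfra overlapped in control mice and lay apart in HFD+mTAC mice.

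**Figure D2:**
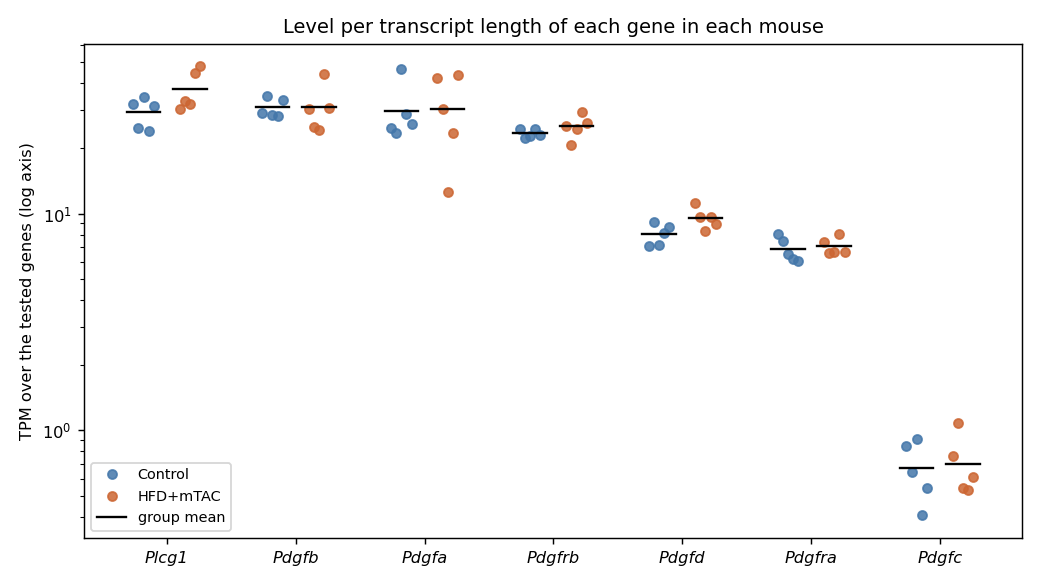
TPM over the tested genes of each gene in each mouse, on a log axis, with genes in order of their mean. Points are mice and black lines are group means. Plcg1, Pdgfb, Pdgfa and Pdgfrb share a range, Pdgfd and Pdgfra lie below it, and Pdgfc lies lowest at 0.405 to 1.08 TPM.

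Pdgfa encodes the A chain, which signals through the alpha receptor, and lies at chr5:138976014-138997370 on the minus strand of GRCm38. The control hearts had 23.6, 22.6, 26.6, 29.2 and 28.2 CPM, and the HFD+mTAC hearts had 24.4, 21.9, 17.4, 20.2 and 33.4 CPM. Apart from the HFD+mTAC mouse at 33.4, which was the highest of all 10, the HFD+mTAC mice were at or below the middle of the control range. The means were 26.0 ± 2.84 and 23.5 ± 6.12 CPM (SD, n = 5 each). The log2 fold change was -0.15 (SE 0.16, 95% confidence interval -0.49 to 0.20, edgeR adjusted p = 0.874).

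Pdgfb encodes the B chain, which binds both receptors, and lies at chr15:79995874-80014977 on the minus strand. Control mice had 88.3, 113, 84.3, 98.5 and 113.6 CPM, and HFD+mTAC mice had 87.7, 73.8, 92.7, 135.7 and 96.3 CPM. The lowest and the highest value of all 10 mice were both in the HFD+mTAC group, which enclosed the control range. The log2 fold change was -0.03 (SE 0.15, interval -0.36 to 0.29, edgeR adjusted p = 0.976).

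Pdgfc, on the plus strand at chr3:81036416-81214040, encodes a latent ligand of the alpha receptor and was the least abundant of the 7 genes. It was counted with only 29 to 75 estimated reads per mouse, which limits the precision of each value. The control hearts had 3.03, 2.42, 3.67, 2.75 and 2.28 CPM, and the HFD+mTAC hearts had 3.33, 4.54, 3.39, 2.05 and 2.64 CPM. The HFD+mTAC group again enclosed the control range. The log2 fold change of 0.17 had the widest interval of the 7 genes (SE 0.24, interval -0.36 to 0.69, edgeR adjusted p = 0.915).

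Pdgfd, on the plus strand at chr9:6168584-6378850, encodes the latent ligand that acts through the beta receptor. Control mice had 14.4, 19.8, 15.2, 19.3 and 19.9 CPM, and HFD+mTAC mice had 19.3, 20.7, 20.2, 20.4 and 19.2 CPM. The 5 HFD+mTAC mice lay within a narrow range that overlapped that of the 3 higher control mice, and 2 control mice lay below it. The means were 17.7 ± 2.71 and 19.9 ± 0.658 CPM (SD, n = 5 each), with a log2 fold change of 0.17 (SE 0.11, interval -0.07 to 0.42, edgeR adjusted p = 0.762). In log2(TPM + 1) over the tested genes, Pdgfd was higher in HFD+mTAC mice by 0.22 (two-sided exact permutation test, unadjusted p = 0.0476, n = 5 each), and 5 of 5 HFD+mTAC mice exceeded the control median. The same test gave a difference of 0.18 on log2 CPM (exact p = 0.127) and of 0.05 on log2(TPM + 1) with TPM as deposited (exact p = 0.619). For log2 of the transcript length by which TPM are corrected, it gave 0.001 (exact p = 0.984). On log2(TPM + 1), the p was 0.0794 to 0.103 without any 1 of TT-583, TT-585, TT-586, TT-588, TT-589 or TT-591 and 0.0317 to 0.0476 without any 1 of the other 4 (exact permutation tests), and the difference was 0.17 without TT-588, the mouse with the highest TPM (11.2). With 5 mice against 5, the smallest p such a test can give is 0.0079.

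**Figure D3:**
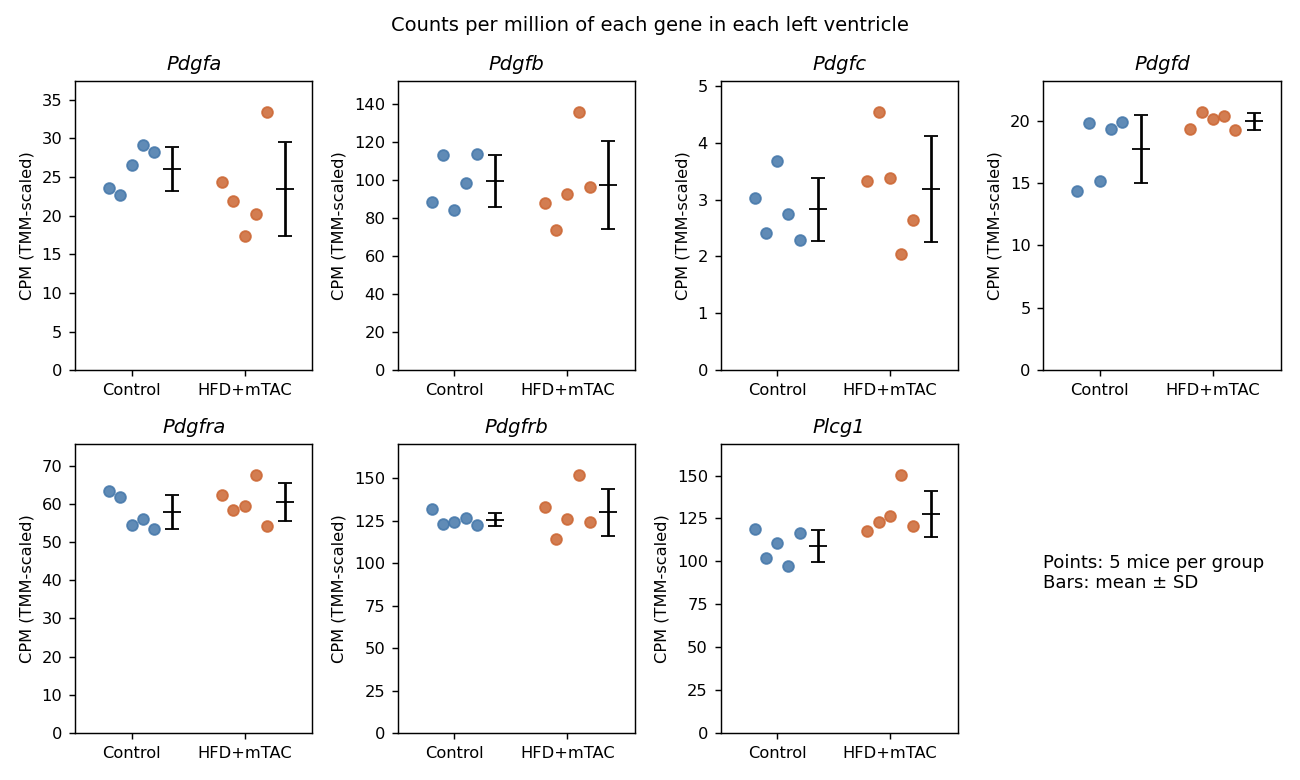
CPM of each gene in each left ventricle, with 1 panel per gene and vertical axes from 0. Points are mice, and bars give the mean ± SD of 5 mice. The groups overlap in every panel, with 4 of 5 HFD+mTAC mice above all control mice for Plcg1.

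Pdgfra encodes the alpha receptor, which binds the A, B and C chains, and lies at chr5:75152292-75198215 on the plus strand. Control mice had 63.3, 61.9, 54.6, 56.2 and 53.4 CPM, and HFD+mTAC mice had 62.3, 58.5, 59.4, 67.7 and 54.2 CPM. Only 1 HFD+mTAC mouse exceeded the highest control mouse. The means were 57.9 ± 4.45 and 60.4 ± 4.99 CPM (SD, n = 5 each). The log2 fold change was 0.06 (SE 0.08, edgeR adjusted p = 0.911), with an interval from -0.12 to 0.24.

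Pdgfrb encodes the beta receptor, which binds the B and D chains, and lies at chr18:61045150-61085061 on the plus strand. Control mice lay close together at 132.1, 123.3, 124.3, 126.4 and 122.6 CPM, whereas HFD+mTAC mice spread over 132.9, 114.6, 125.9, 152.2 and 124.3 CPM. The highest value belonged to TT-591, the mouse that was also highest for Pdgfb, Pdgfra and Plcg1 on this scale. The log2 fold change was 0.05 (SE 0.08, interval -0.13 to 0.23, edgeR adjusted p = 0.926), and it was -0.02 without TT-591. The coefficient of variation over all 10 mice was 7.86% for Pdgfra and 7.78% for Pdgfrb, against 11.7 to 24.8% for the 4 ligands.

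Plcg1 encodes the phospholipase that docks on activated PDGF receptors, among other receptor tyrosine kinases, and cleaves a membrane phosphoinositide into inositol trisphosphate and diacylglycerol. It lies at chr2:160731300-160775760 on the plus strand. Control mice had 118.7, 101.8, 110.8, 97.0 and 116.5 CPM, and HFD+mTAC mice had 117.5, 123, 126.7, 150.5 and 120.5 CPM. All 5 HFD+mTAC mice exceeded the control median, and 4 of them exceeded the highest control mouse. The means were 109 ± 9.32 and 127.6 ± 13.3 CPM (SD, n = 5 each), and the log2 fold change was 0.23 (SE 0.09, interval 0.03 to 0.42). The unadjusted p was 0.0259 and the adjusted p was 0.511 by edgeR, and 5.06% of all tested genes had a smaller p. The exact permutation test of log2 CPM gave p = 0.0159, and that of log2(TPM + 1) gave a difference of 0.33 with p = 0.119 (n = 5 each, two-sided). Without TT-591 the log2 fold change was 0.16 (edgeR adjusted p = 0.621). The unadjusted edgeR p stayed under 0.05 in 7 of the 10 fits that left out 1 mouse, and was 0.0614 without TT-584, 0.0697 without TT-586 and 0.0696 without TT-591.

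The exact permutation tests of the other 5 genes on log2(TPM + 1) gave differences between -0.05 for Pdgfa and 0.10 for Pdgfrb, with p of at least 0.294 (n = 5 each). The 7 genes were tested singly, with no adjustment of these p-values over the 7.

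CPM and TPM differ in their scaling between mice, by TMM for CPM and to the same total for TPM, and by the average effective transcript length. For Pdgfd, HFD+mTAC mice exceeded control mice by 0.184 in log2 CPM, 0.001 in log2 length and 0.245 in log2 TPM. Salmon estimates this length for each gene and mouse. It depends on the isoforms that reads are assigned to, and the study's settings also corrected for sequence, GC and position bias. How far isoforms and these corrections each shaped this length was not tested. For Pdgfa, this length ran from 610.5 bases in the control mouse TT-585 to 1382 bases in the HFD+mTAC mouse TT-590, a ratio of 2.26. Its TPM accordingly spread over a 3.68-fold range, whereas its CPM spread over a 1.92-fold range. TT-585 was in the middle of the 5 control mice for Pdgfa by CPM (26.6) and highest of all 10 mice by TPM (46.3). For Plcg1, the HFD+mTAC mouse TT-592 had a length of 2682 bases, against 3407 to 4338 bases in the other 9, and was highest by TPM (47.7) but within the range of its group by CPM (120.5). The lengths of the other genes with over 100 counts per mouse were steadier, with coefficients of variation of 5.23 to 6.62% for Pdgfb, Pdgfd, Pdgfra and Pdgfrb, against 11.3% for the median tested gene. None of the 7 lengths differed between the groups at p under 0.05 by the exact permutation test (smallest p = 0.111, for Pdgfra, longer in HFD+mTAC mice by 0.08 on the log2 scale, n = 5 each).

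**Figure D4:**
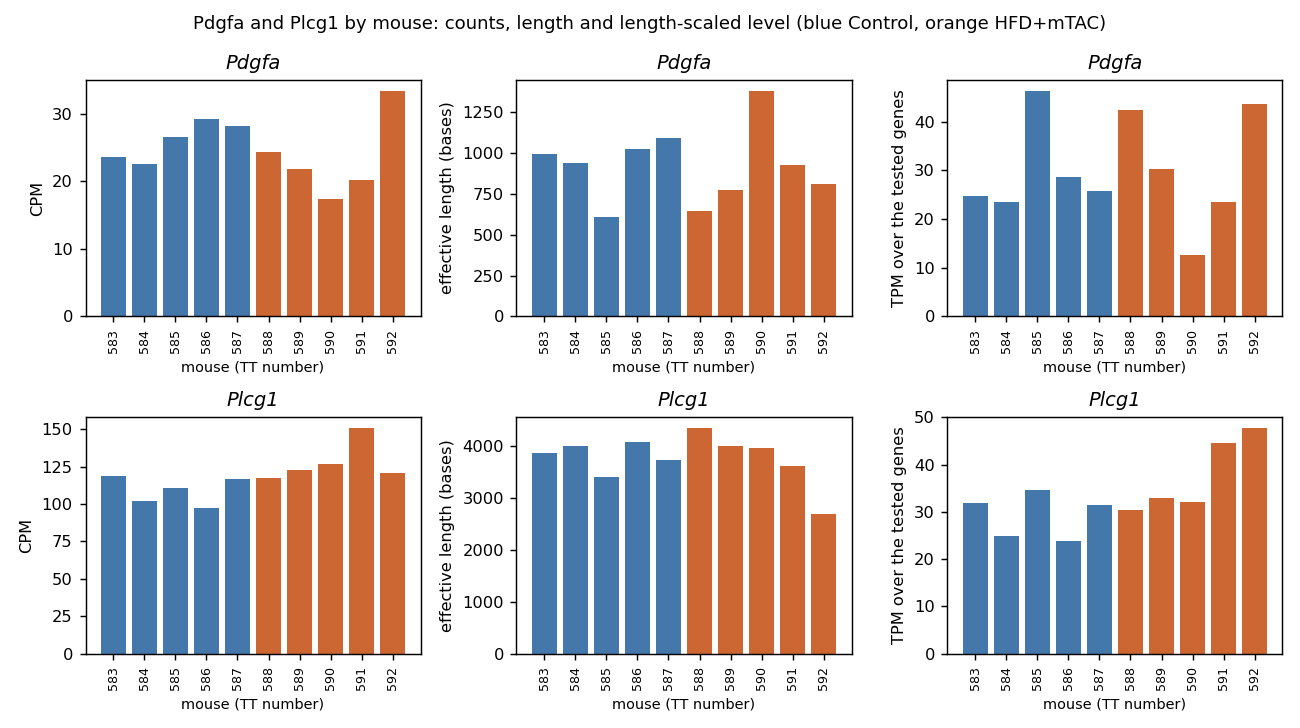
CPM, average effective transcript length and TPM over the tested genes of Pdgfa (upper row) and Plcg1 (lower row), with 1 bar per mouse. Blue bars are control mice and orange bars are HFD+mTAC mice. The short lengths of Pdgfa in TT-585 and of Plcg1 in TT-592 go with the highest TPM of each gene but not with the highest CPM.

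These lengths also limit how levels can be compared between genes. In all 10 mice, the lengths of Pdgfb, Pdgfc and Pdgfra exceeded the longest transcript of each gene in the GENCODE M21 annotation used here (2944, 3521 and 6834 bases), as did those of 32.7% of all tested genes. Counts divided by such a length are lower than counts divided by the annotated length. TPM are then rescaled to a total, and TPM with annotated lengths were not computed. Antisense or overlapping loci are annotated at Pdgfa, Pdgfb, Pdgfc, Pdgfd, Pdgfra and Plcg1, and none at Pdgfrb. The library kit keeps the strand, and how far reads of a partner locus enter each gene was not tested.

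With that limit, the ligand pool was made up mostly of Pdgfa and Pdgfb. Pdgfa held 42.3% ± 8.27 of the summed ligand TPM in the control group and 41.1% ± 11.5 in the HFD+mTAC group, and Pdgfb held 45.0% ± 6.54 and 44.0% ± 10.1 (SD, n = 5 each). Pdgfd held 11.7% ± 1.85 and 13.8% ± 2.77, and Pdgfc held 0.964% ± 0.289 and 1.02% ± 0.396. Pdgfrb exceeded Pdgfra in every mouse, by a ratio of 3.45 ± 0.448 in the control group and 3.58 ± 0.306 in the HFD+mTAC group. Summed ligand TPM exceeded summed receptor TPM by a ratio of 2.30 ± 0.349 and 2.22 ± 0.468. These ratios were not tested between the groups.

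Whether the genes moved together from mouse to mouse was examined in 42 correlations of log2(TPM + 1) over the 10 mice, 21 between pairs of the genes and 21 between a gene and the mean of the fibroblast, mural or endothelial marker list. None of the 42 had an adjusted p under 0.05. The closest relation was between Pdgfb and the markers of mural cells, the pericytes and smooth muscle cells that respond to PDGF-B (Pearson r = 0.745, permutation p = 0.0127, adjusted p = 0.437; Spearman rho = 0.794, permutation p = 0.00885, adjusted p = 0.264). It was 0.753 after each group was centred on its mean and 0.744 without the 2 mice farthest from the median. Pdgfra and Pdgfrb correlated with r = 0.435 (permutation p = 0.21, adjusted p = 0.588) and rho = 0.297 (permutation p = 0.403, adjusted p = 0.897), and r was 0.042 without the 2 farthest mice and 0.704 on log2 CPM (permutation p = 0.0164, adjusted p = 0.115). On log2 CPM, 2 of the 42 had an adjusted p under 0.05, Pdgfb with Pdgfc (r = -0.947, permutation adjusted p = 0.00336) and mural markers with Pdgfc (r = -0.879, permutation adjusted p = 0.0233). On log2(TPM + 1) these were -0.369 and -0.487, and the second was 0.37 without the 2 farthest mice.

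Among 7444 tested genes with a mean of at least 5 TPM, those whose group-centred log2(TPM + 1) was most like that of Pdgfra over the 10 mice were Sash1 (r = 0.975) and Eid1 (r = 0.953). For Pdgfrb they were Cpxm1 (r = 0.939) and Timeless (r = 0.925), and these values were 0.605 and 0.522 without the 2 farthest mice. For Plcg1 they were Haghl (r = 0.899) and Gtf3c2 (r = 0.883), and with log2 CPM in place of log2(TPM + 1) these values were 0.207 and 0.588. These are the highest of 7444 values each and are given as a description.

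The genes that process the ligands or act beyond the receptors were read from lists written with earlier results of these data known. Of 90 such genes outside the 7, 80 were tested. In HFD+mTAC hearts 53 of them (66.2%) were higher, where 50.3% of all tested genes were, and 27 were lower. None of the 80 had an adjusted p under 0.05 by edgeR or limma, and DESeq2 called 1 of them, Plcb1, where it called 0.888% of all genes. At an unadjusted edgeR p under 0.05, 7 of the 80 (8.75%) were higher, where 4.54% of all tested genes were, and 0 were lower, where 3.72% of all tested genes were. Their median log2 fold change was 0.06, against 0.002 over all genes.

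Among the 12 genes for ligand processing and co-receptors, 11 were tested, of which 9 were higher and 2 lower. Pcsk6, a proprotein convertase, had means of 97.2 ± 8.90 and 113.6 ± 10.1 CPM (SD, n = 5 each) and a log2 fold change of 0.22 (SE 0.09, unadjusted p = 0.0257, edgeR adjusted p = 0.51). The 2 lower genes were Nrp1, a co-receptor (log2 fold change -0.04, edgeR adjusted p = 0.926), and the convertase Pcsk5 (-0.12, adjusted p = 0.936).

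Of 41 genes that act next to the receptors, 39 were tested, 26 higher and 13 lower, with a median log2 fold change of 0.03. Only Pik3r2, a regulatory subunit of phosphatidylinositol 3-kinase, had an unadjusted p under 0.05 (log2 fold change 0.25, SE 0.09, edgeR adjusted p = 0.421), and its unadjusted p was 0.514 with limma on log2(TPM + 1). Next by p was Ptpn1, a phosphatase that acts on receptor tyrosine kinases (0.23, edgeR adjusted p = 0.607), with 0.66 by limma on log2(TPM + 1) (unadjusted p = 0.0105) and 0.64 by edgeR with transcript lengths as an offset. On the lower side were the kinase Akt2 (-0.13, edgeR adjusted p = 0.771) and the phosphatase Ptpn2 (-0.16, edgeR adjusted p = 0.771). The value of Akt2 was 0.61 on log2(TPM + 1).

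In the phospholipase C family, Plcb1, which G proteins rather than tyrosine kinases activate, was the only gene of the lists outside the 7 whose groups did not overlap, 1 of 80 against 1.96% of all tested genes. Control mice had 18.2, 19.0, 18.9, 16.8 and 22.9 CPM, and HFD+mTAC mice had 29.7, 24.3, 23.8, 28.4 and 23.2 CPM. Its log2 fold change was 0.43 (SE 0.11, unadjusted p = 0.00205, edgeR adjusted p = 0.261; DESeq2 adjusted p = 0.0388). Of the 11 family members tested, Plcg1 included, 6 were higher and 5 lower, and 3 had an unadjusted p under 0.05, all higher. The third, beside Plcb1 and Plcg1, was Plcb3 (0.23, edgeR adjusted p = 0.524), which is named after its value was seen. Plcxd2 (-0.42, edgeR adjusted p = 0.91) and Plcb2 (-0.21, edgeR adjusted p = 0.913) led the lower genes. On log2(TPM + 1) they were at -0.01 and 0.52.

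Of 19 genes that act downstream of phospholipase C, 17 were tested, 10 higher and 7 lower. Itpr3, a receptor for inositol trisphosphate that releases calcium, had a log2 fold change of 0.42 (SE 0.12, unadjusted p = 0.00463, edgeR adjusted p = 0.329), and its means were 20.8 ± 2.79 and 27.8 ± 3.87 CPM (SD, n = 5 each). Prkcb, a protein kinase C that diacylglycerol activates, had 0.80 (edgeR adjusted p = 0.584) at under 1.1 CPM in every mouse, with 0.42 by limma on log2(TPM + 1) and 1.69 with the length offset. Rasgrp3, a diacylglycerol-responsive exchange factor (-0.17, edgeR adjusted p = 0.714), and Dgke, a diacylglycerol kinase (-0.24, edgeR adjusted p = 0.74), were lower, and Dgke was at -0.60 with the length offset (edgeR unadjusted p = 0.0202). Itpr1 and Dgkh, and Cbl among the genes next to the receptors, were listed at 0 in every mouse and were not tested. A listed 0 can be a failed estimate and does not show that a gene is not expressed. The 3 receptor tyrosine kinases of the same class, Kit, Csf1r and Flt3, were all higher, with no adjusted p under 0.72. Kit had 0.33 by edgeR on counts and -0.22 by limma on log2(TPM + 1).

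**Figure D5:**
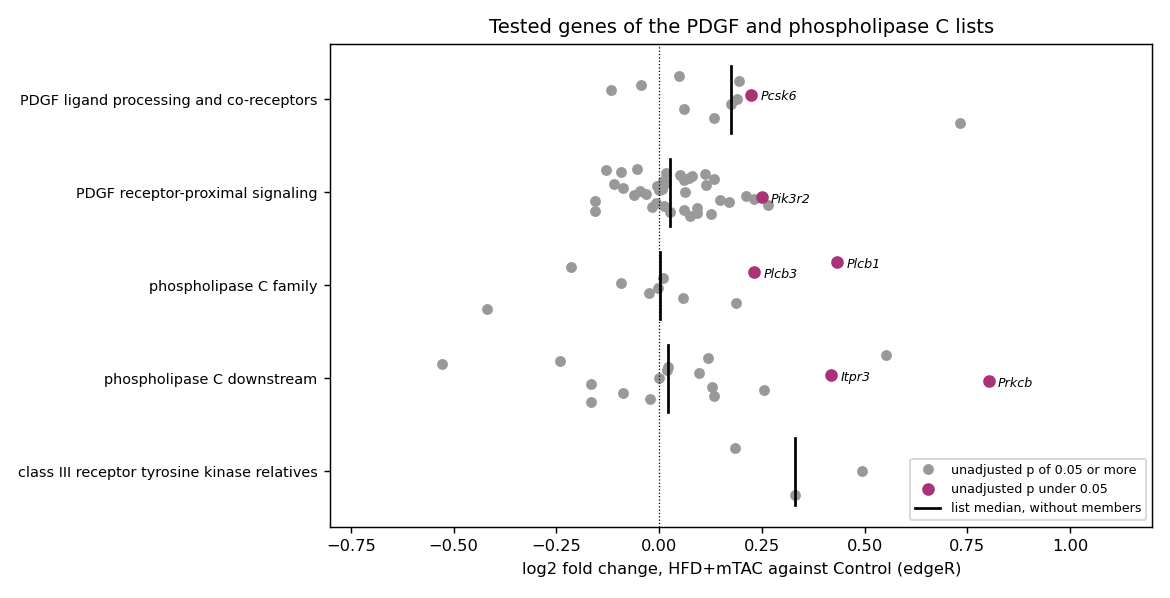
Log2 fold change (edgeR, HFD+mTAC against control mice) of the tested genes of the 5 lists outside the 7 genes, all but 1 of which are drawn. Plcg1, which is in the phospholipase C list, is not drawn. Purple points have an unadjusted p under 0.05, and black lines are the list medians computed without the 7 genes. The 6 purple points lie above 0, and none of the genes had an adjusted p under 0.05.

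Markers of other cell types are given beside these values. Of all tested genes, 50.3% were higher in HFD+mTAC mice. At an unadjusted edgeR p under 0.05, 4.54% of all tested genes were higher and 3.72% were lower. Of 9 fibroblast markers, 5 were higher, 1 of them with an unadjusted p under 0.05 by edgeR, and 4 were lower. Their summed level was 891 to 1260 TPM in the control group and 875 to 1260 TPM in the HFD+mTAC group. Of 7 tested mural markers, 2 were higher and 5 lower (510 to 784 and 469 to 844 TPM), and of 8 endothelial markers, 4 were higher and 4 lower (1630 to 2710 and 1880 to 3320 TPM). All 9 ventricular cardiomyocyte markers were lower in HFD+mTAC mice, with a median log2 fold change of -0.21 and an unadjusted p under 0.05 for 2 of them. The 4 tested platelet markers were also all lower, 2 with an unadjusted p under 0.05, and the list summed to 42.5 to 85.8 TPM in the control group and 36.9 to 54.8 TPM in the HFD+mTAC group. Of 7 tested macrophage markers 4 were higher and 3 lower, and the 4 tested Schwann cell markers were all lower, 1 with an unadjusted p under 0.05. Of 5 atrial markers 3 were tested, 1 higher, with an unadjusted p under 0.05, and 2 lower. Their median log2 fold change was -0.42, and the list summed to 594 to 1060 TPM (median 718) in the control group and 367 to 970 TPM (median 416) in the HFD+mTAC group. Most of this sum was Nppa, at 358 to 1040 TPM over the 10 mice, against at most 17.7 TPM for any other marker of the list. Adipocyte markers summed to at most 5.2 TPM and were not tested. Treml1, a platelet marker, was listed at 0 in 9 of the 10 mice. No marker list had a gene with an adjusted p under 0.05 by edgeR. The part of these cell types in the values of the 7 genes was not tested beyond the correlations above.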

How the data were processed

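Poly(A) RNA of 10 left ventricles was sequenced with a stranded kit. The study's methods give trimming with fastp and quantification with salmon (Salmon 1.6.0 in the submitters' processing notes) on GENCODE M25 transcripts of GRCm38, whereas those notes give a human build, and read layout differs between methods and labels. As deposited, the expected counts are salmon's estimates per gene without normalization, and 20.07% of them are not whole. The authors also deposited TPM, scaled within each mouse and corrected for length, and average effective transcript lengths in bases.

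Genes were tested when protein-coding, not mitochondrial and counted at least 1 time in 9 of 10 mice. Of 29564 symbols, 27812 matched GENCODE M21 or its names, 864 matched through older symbols and 888 did not. Counts were rounded and fitted with edgeR 4.0.16 in R 4.3.3 (TMM, quasi-likelihood test, Benjamini-Hochberg adjustment, threshold 0.05), 5 mice against 5 with no covariate. CPM are TMM-scaled. TPM were renormalized over the tested genes, which held 12.1 to 18.3% of the nominal total, and marker levels were put on that scale. Each gene's values were tested on their own by exact permutation (two-sided, 252 arrangements), and correlations with 100000 permutations (8-mouse ones exactly), in Python 3.11.15 with SciPy 1.17.1. Alternatives were DESeq2 1.42.0, its size factors, upper-quartile scaling, limma 3.58.1 on log2(TPM + 1) or log2(TPM + 0.1), other filters, all biotypes, lengths as an offset, a robust fit and leaving out each mouse. The scripts were tested on simulated data. Named were the 7 genes, from each pathway list the 2 smallest p-values in each direction, and the 2 genes most like Pdgfra, Pdgfrb and Plcg1; 1 gene that this rule selects is not reported here. The genes, lists and tests were chosen with earlier results of these data known. The labels give no batch.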

Additional observations from a re-analysis of the deposited data

Results flagged for a closer look

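In 42 groups of 5 values (CPM, TPM over the tested genes and effective length of the 7 genes), 4 held a mouse far from the other 4 of its group, by a gap over 0.71 of the group's range. Chance flags about 1 in 20 groups. In HFD+mTAC mice, TT-591 had 150.5 CPM of Plcg1, where the next mouse had 126.7 CPM. In control mice, TT-585 had 46.3 TPM of Pdgfa, where the next had 28.7 TPM. Effective length stood apart for Pdgfb in the HFD+mTAC mouse TT-590, at 3805 bases against 3325 bases or fewer, and for Pdgfc in the control mouse TT-586, at 6820 bases against 4282 bases or fewer.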

How the results depend on the processing

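No setting gave any of the 7 genes an adjusted p under 0.05. Over the 10 alternative fits of all mice, the 7 log2 fold changes kept their direction, and the smallest adjusted p was 0.382 (Plcg1, DESeq2). With 1 mouse left out they ranged from -0.31 to -0.06 for Pdgfa, -0.18 to 0.05 for Pdgfb, 0.00 to 0.29 for Pdgfc, 0.11 to 0.22 for Pdgfd, 0.02 to 0.10 for Pdgfra, -0.02 to 0.08 for Pdgfrb, 0.16 to 0.26 for Plcg1 and -0.24 to 0.04 for Pcsk5. Pdgfa was at -0.31 without TT-592 (edgeR unadjusted p = 0.0312). The number of the 7 genes with an unadjusted p under 0.05 was 1 in the main fit, 0 with limma or with lengths as an offset, and 0 to 2 with 1 mouse left out. The number of all genes called was 118 with DESeq2, 1 with limma or the length offset, and 1 to 9 with 1 mouse left out. Of the pathway genes, DESeq2 called 1, and those lower at an unadjusted p under 0.05 numbered 1 with the offset and 0 to 1 with 1 mouse left out.

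Akt2 was at 0.61 with both limma fits and 0.55 with the offset, Plcb2 at 0.52 with limma on log2(TPM + 1), 0.88 on log2(TPM + 0.1) and 1.00 with the offset, and Kit at -0.22, -0.30 and -0.44, each opposite in sign to edgeR on counts. These alternatives correct for effective length, and the cause was not tested. On log2(TPM + 0.1), limma gave 0.72 for Ptpn1, 1.23 for Prkcb, -0.49 for Dgke and -0.10 for Plcxd2. Plcb1 passed the threshold only with DESeq2, and its adjusted p ranged from 0.0388 to 0.667 over the alternatives.

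For the exact tests, TPM as deposited, which include mitochondrial genes, gave differences in log2(TPM + 1) of -0.01 for Pdgfc, -0.06 for Pdgfra and -0.04 for Pdgfrb, opposite to the renormalized values, and 0.05 for Pdgfd (exact p = 0.619). Log2 CPM gave 0.18 for Pdgfd and 0.23 for Plcg1. With 1 mouse left out, differences in log2(TPM + 1) ranged from -0.20 to 0.22 for Pdgfa, -0.16 to 0.05 for Pdgfb, -0.05 to 0.08 for Pdgfc, 0.17 to 0.26 for Pdgfd, 0.00 to 0.09 for Pdgfra, 0.04 to 0.16 for Pdgfrb and 0.24 to 0.40 for Plcg1, and Pdgfrb was at 0.16 without TT-589 (exact p = 0.0238). Those in log2 length ranged from -0.22 to 0.05 for Pdgfa, 0.00 to 0.07 for Pdgfb, 0.04 to 0.29 for Pdgfc, -0.03 to 0.05 for Pdgfd, 0.06 to 0.10 for Pdgfra, -0.02 to 0.04 for Pdgfrb and -0.11 to 0.06 for Plcg1, and Pdgfc was at 0.29 without TT-586 (exact p = 0.0476).

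Of the 42 correlations, 2 passed the threshold on log2 CPM and none with centred values or without the 2 farthest mice. The sign differed from that on log2(TPM + 1) for 10, 2 and 11 of the 42. That of mural markers with Pdgfc was 0.37 without the 2 farthest mice.

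No paired analysis was possible because the groups share no replicate number. Pdgfc was counted with 29 to 75 estimated reads per mouse.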
